A study of Mus musculus with 2 samples.

Results

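Open chromatin around the mouse olfactory receptor genes was examined in whole midbrain tissue taken on the day of birth (age 0 day). DNase-seq cuts the accessible DNA of nuclei with DNase I and sequences the ends, so that a peak marks a stretch where the enzyme cut often. The members were chosen by position: a 150 bp peak on an autosome was taken when its midpoint lay within 10 kb of the body of a gene whose symbol starts with Olfr in the GENCODE M21 annotation of mm10. This gave 535 of 222935 autosomal peaks in replicate 1 and 339 of 119469 in replicate 2. Merging overlapping or touching peaks of both lists left 670 regions near Olfr genes out of 254609, and 161 of these, out of 73037 on the autosomes, held a peak of each library and are called shared here. At the edge of the rule, the outermost peaks of replicate 1 lay 9906 bp from a gene body with signals of 32 and 77, and the first peaks outside lay at 10019 bp and 10045 bp with signals of 70 and 14. In replicate 2 the last peaks inside lay at 9944 bp and 9999 bp with signals of 6 and 39, and the first outside at 10054 bp and 10078 bp with signals of 27 and 20.

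The 2 libraries form a single group and serve as biological replicates: healthy B6NCrl mice, postnatal, with males and females pooled. Each came from its own biosample, but both biosamples trace to the same donor entry, and the protocol named for the nuclei includes crosslinking. There is no treated group, no mutant and no other age, so the comparisons are between places in the genome and between the replicates, and they carry no test between conditions. Column 7 of the peak lists, called the signal here, holds whole numbers from 1 to 149, and read depth is unknown. In bulk tissue, a site open in a few cells and a site weakly open in many cells cannot be told apart.

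Olfactory receptors are the odorant-sensing G protein-coupled receptors of the nose and form the largest gene family of the mouse. Most of their genes lie in tandem clusters. An olfactory sensory neuron expresses a single receptor allele, and the remaining receptor genes are held in compact heterochromatin. In those neurons, enhancers within the clusters, named the Greek Islands, are bound by Lhx2, Ebf factors and the adaptor Ldb1, and the class I receptors on chromosome 7 are served by a distant enhancer, the J element. The midbrain is not a site of olfactory receptor choice.

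The sequences of 9 shared regions are given on the plus strand of mm10, read from the RefSeq copy of GRCm38. The first 4 are the distal shared regions with the highest signal ranks near Olfr genes, lying near Olfr1344 (chr7:6435456-6435605), Olfr750 (chr14:51063396-51063585), Olfr1359 (chr13:21710056-21710205) and Olfr288 (chr15:98181396-98181605). The next pair lies within 500 bp of a transcription start site (TSS) of Olfr1499 (chr19:13818936-13819105) and Olfr958 (chr9:39554076-39554245). The Olfr958 region was picked as the one at an Olfr TSS whose ranks differed most between the libraries. Its percentiles among distal peaks were 92.2 in replicate 1 and 36.3 in replicate 2. Capitals in these 6 mark matches to the motifs searched for. Near Olfr1344 they mark a match to the AP-1 pattern TGANTCA, in which N is any base. The others are an ETS site near Olfr750, an SP site near Olfr1359 and 2 E-boxes at Olfr958.
Near Olfr1344: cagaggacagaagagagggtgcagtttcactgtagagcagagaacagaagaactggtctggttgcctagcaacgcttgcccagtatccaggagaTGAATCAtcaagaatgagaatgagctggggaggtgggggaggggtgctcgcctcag
Near Olfr750: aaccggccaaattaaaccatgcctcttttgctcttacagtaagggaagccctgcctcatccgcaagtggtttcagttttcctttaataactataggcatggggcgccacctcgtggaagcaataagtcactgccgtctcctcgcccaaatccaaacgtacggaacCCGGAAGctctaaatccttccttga
Near Olfr1359: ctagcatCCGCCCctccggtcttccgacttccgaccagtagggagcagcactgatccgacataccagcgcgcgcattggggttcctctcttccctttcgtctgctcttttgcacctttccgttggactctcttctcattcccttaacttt
Near Olfr288: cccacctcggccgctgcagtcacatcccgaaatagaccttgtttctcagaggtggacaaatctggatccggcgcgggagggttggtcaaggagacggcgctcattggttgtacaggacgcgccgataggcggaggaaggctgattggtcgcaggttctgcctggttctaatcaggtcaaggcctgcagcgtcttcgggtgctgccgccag
At Olfr1499: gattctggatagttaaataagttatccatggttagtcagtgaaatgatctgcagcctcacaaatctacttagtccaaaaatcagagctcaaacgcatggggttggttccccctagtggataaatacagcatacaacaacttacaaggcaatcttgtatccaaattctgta
At Olfr958: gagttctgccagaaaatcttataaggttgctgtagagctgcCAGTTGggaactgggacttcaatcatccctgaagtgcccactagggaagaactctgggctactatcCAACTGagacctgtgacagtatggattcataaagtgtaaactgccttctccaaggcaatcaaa

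The other 3 sequences are shared regions, also among the 10 highest ranked, that lie over a transfer RNA (tRNA) gene, and capitals mark the bases of that gene in the RefSeq annotation. They cover the leucine tRNA gene n-TLtaa4 (chr19:12010996-12011165, gene on the minus strand), the proline tRNA gene n-TPagg4 (chr14:51064776-51065045, minus strand) and the valine tRNA gene n-TVtac2 (chr19:12012176-12012405, plus strand).
Over n-TLtaa4: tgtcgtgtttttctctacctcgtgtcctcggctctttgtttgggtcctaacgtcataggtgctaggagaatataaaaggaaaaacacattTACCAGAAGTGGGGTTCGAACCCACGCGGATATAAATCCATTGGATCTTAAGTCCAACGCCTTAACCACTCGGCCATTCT
Over n-TPagg4: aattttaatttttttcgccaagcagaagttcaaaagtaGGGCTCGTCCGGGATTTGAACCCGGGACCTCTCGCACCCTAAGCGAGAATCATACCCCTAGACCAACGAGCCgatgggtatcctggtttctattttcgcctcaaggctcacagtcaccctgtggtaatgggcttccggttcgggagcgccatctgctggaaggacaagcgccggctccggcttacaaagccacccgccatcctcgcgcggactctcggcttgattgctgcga
Over n-TVtac2: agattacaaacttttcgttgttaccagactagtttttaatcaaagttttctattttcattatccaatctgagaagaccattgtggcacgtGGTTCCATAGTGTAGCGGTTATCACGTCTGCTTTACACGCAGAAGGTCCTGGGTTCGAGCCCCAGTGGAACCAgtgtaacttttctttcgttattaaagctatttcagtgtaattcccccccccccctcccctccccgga

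The replicate 1 list was the longer, with a median signal of 44 over its autosomal peaks against 18 in replicate 2, and the values of the lists are on scales of their own. Promoters, taken as 500 bp to either side of any TSS of a gene, were used to check the tissue label. A shared promoter region was present at 6 of 6 neuronal genes and at 5 of 11 midbrain genes. It was present at 0 of 5 forebrain genes and at 0 of 8 genes of olfactory sensory neurons. For the supporting (sustentacular) cells of the olfactory epithelium it was present at 0 of 4 genes. Over all autosomal protein-coding genes outside the Olfr family the share was 65.4%. The midbrain count lay below that share, so it does not by itself bear out the tissue label. Among the midbrain genes, En1 (signals 108 and 36 in replicates 1 and 2), En2 (112 and 52) and Meis2 (106 and 28) were open in both libraries, and no peak lay at Foxa2, Lmx1b, Th or Sox14. Of the olfactory neuron genes, Rtp1 (43) and Rtp2 (35) had a replicate 1 peak and Gng13 (15) a replicate 2 peak, and neither library had one at Omp, Cnga2, Cnga4, Gfy or Stoml3.

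Open sites were sparse around Olfr genes in both libraries. The neighbourhoods within 10 kb of the 1399 autosomal Olfr genes covered 24.5 Mb, or 1.02% of the autosomes, and held 0.24% of the replicate 1 peaks and 0.284% of the replicate 2 peaks. Replicate 1 had 21.8 peaks per Mb there (95% Poisson interval 20.01 to 23.7) against 93.0 over the autosomes, and replicate 2 had 13.8 (12.4 to 15.4) against 49.9. Shared regions numbered 6.57 per Mb (5.59 to 7.66) against 30.5, which is 21.5% of the autosomal density (18.3% to 25.1%). These intervals, like all others given, cover counting error only.

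Density rose with distance from the genes. Inside Olfr gene bodies there were 4.001 shared regions per Mb (2.74 to 5.65), from the gene edge to 2 kb away 4.72, from 2 to 5 kb 7.12, and from 5 to 10 kb 11.3 (8.68 to 14.4). Beyond the rule's limit the density was 19.8 per Mb from 10 to 20 kb and 35.1 per Mb (30.6 to 39.99) from 20 to 50 kb, where the autosomal 30.5 fell just below the interval. Replicate 2 followed the same order, from 11.4 peaks per Mb in gene bodies to 51.9 at 20 to 50 kb. Replicate 1 departed from it close to the genes, with 25.2 peaks per Mb within 2 kb against 18.1 from 2 to 5 kb. These distance ranges were not split by closeness to other coding genes, and the part of such genes in the rise was not tested.

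**Figure D1:**
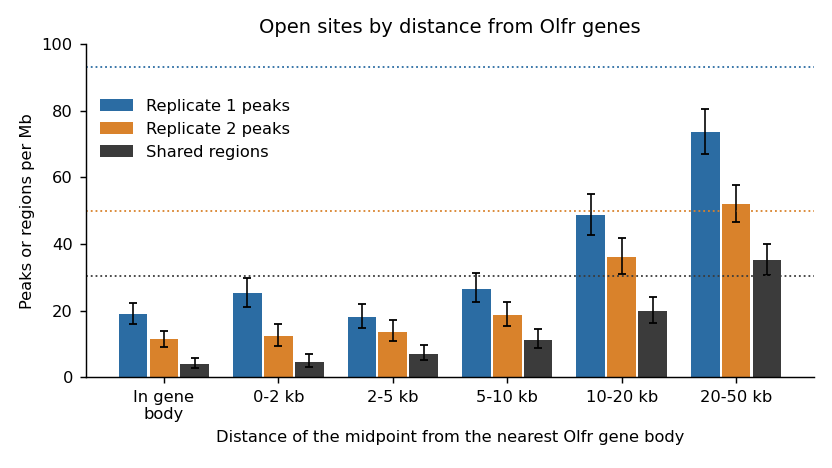
Peaks of each replicate and shared regions per Mb (y axis) by distance of the midpoint from the nearest Olfr gene body (x axis). Error bars are 95% Poisson intervals and dotted lines are the autosomal densities of 93.0, 49.9 and 30.5 per Mb. The shared density climbs from 4.001 per Mb in gene bodies to 35.1 per Mb at 20 to 50 kb.

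Open sites were denser close to other protein-coding genes, but most lay away from them. Only 0.991 Mb of the neighbourhoods lay within 10 kb of the TSS of another coding gene, and this space held 48 of the 161 shared regions, or 48.4 per Mb (35.7 to 64.2), against 72.3 per Mb in all autosomal DNA that close to such a TSS. It also held 92 of the 535 replicate 1 peaks and 59 of the 339 replicate 2 peaks. The remaining 23.5 Mb held 113 shared regions, or 4.80 per Mb (3.96 to 5.77). Autosomal DNA more than 10 kb from a coding TSS outside the family held 18.1 per Mb, so the sparseness was also seen where no other coding gene was near. The same held in each library, with 18.8 against 73.7 peaks per Mb in replicate 1 and 11.9 against 32.5 in replicate 2.

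**Figure D2:**
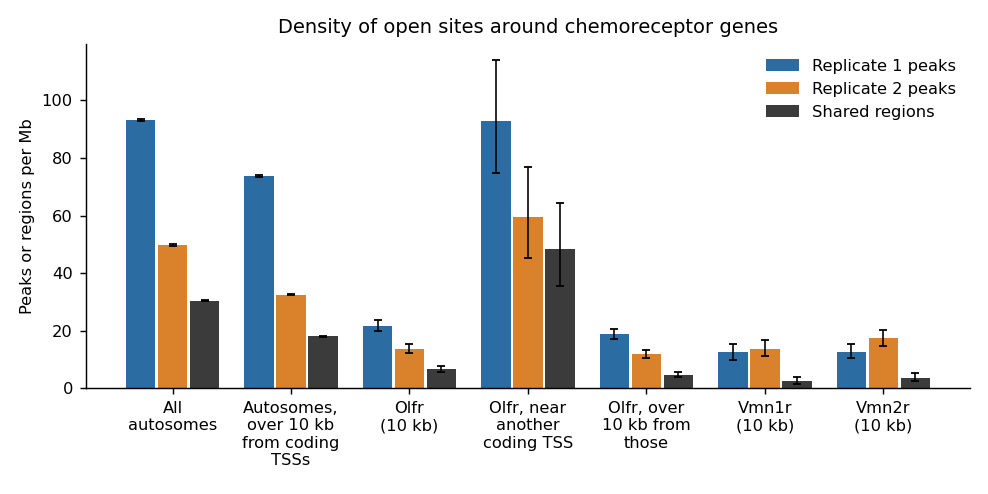
Peaks of each replicate and shared regions per Mb (y axis) in the spaces named on the x axis, with 95% Poisson intervals. Shared regions reach 48.4 per Mb in the part of the Olfr neighbourhoods near another coding TSS and 4.80 per Mb in the rest, against 18.1 per Mb in autosomal DNA over 10 kb from coding TSSs.

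The median member lay 4006 bp from the nearest Olfr TSS in replicate 1 and 4675 bp in replicate 2, and the median shared region lay 6250 bp away. To the nearest TSS of a protein-coding gene outside the family the median distance was 47869 bp in replicate 1 and 47671 bp in replicate 2, against 20354 bp and 10244 bp over all autosomal peaks. For shared regions near Olfr genes it was 25675 bp. Distal peaks, those more than 500 bp from every annotated TSS, made up 418 of 535 members in replicate 1 and 293 of 339 in replicate 2, against 187596 of 222935 and 90514 of 119469 autosomal peaks.

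The strongest shared regions at coding promoters belonged to other genes beside or within the clusters. They lay at Hist1h2ai, a core histone gene beside Olfr1359 (signals 130 and 67 in replicates 1 and 2), at the zinc finger genes Zfp174 (134 and 65), Zfp202 (127 and 55) and Zkscan8 (104 and 54), and at Gm12258 (134 and 61). Ndufa10, a subunit of respiratory complex I, had 97 and 60, and Trim68, a RING-type E3 ubiquitin ligase gene within the class I receptor cluster, had 105 and 45. H2-M3, a class Ib antigen-presenting gene, had 91 and 50, Sprn, which encodes the prion-like protein Shadoo, had 94 and 33, and AW551984 had 74 and 29. All 10 ranked above 80% of the autosomal distal peaks of either library. Peaks within 500 bp of a TSS outside the family overlapped the other library in 21 of 30 cases in replicate 1 (70.0%) and 21 of 23 in replicate 2 (91.3%). The shares over all autosomal peaks within 500 bp of a TSS were 62.7% and 78.5%, inside the members' intervals of 52.1% to 83.3% and 73.2% to 97.6%.

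Few of the annotated Olfr promoters were open. For 698 of 2809 Olfr coding transcripts (24.8%) the annotated TSS was the first coding base, so that the window around it need not hold the promoter. Replicate 1 had a promoter peak at 79 of 1399 Olfr genes (5.65%, Wilson 95% interval 4.55% to 6.98%) and replicate 2 at 20 (1.43%, 0.927% to 2.20%), against 73.5% and 66.9% of the other autosomal protein-coding genes. Shared promoter regions were found at 7 Olfr genes (0.5004%, 0.243% to 1.03%) against 65.4%. Where Olfr promoters were open the signal was low, with a median of 26 in replicate 1 and 9 in replicate 2 against 116 and 56 at the other genes. Among protein-coding Olfr genes 70 of 1128 had a replicate 1 promoter peak (6.21%), and among Olfr pseudogenes 9 of 271 (3.32%).

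The libraries differed at these promoters. Replicate 1 had 88 peaks within 500 bp of an Olfr TSS, or 36.4 per Mb (29.2 to 44.9), against 20.2 per Mb (18.4 to 22.2) in the rest of the neighbourhoods. Replicate 2 had 23, or 9.52 per Mb (6.04 to 14.3), against 14.3 per Mb (12.8 to 16.0), so the order of the 2 spaces was opposite in the libraries. Only 8 of the 88 (9.09%) overlapped a replicate 2 peak, and 7 of the 23 (30.4%) overlapped a replicate 1 peak, against 62.7% and 78.5% of all autosomal peaks within 500 bp of a TSS. By their midpoints 36 of the 88 lay in an exon, 11 in an intron and 41 between genes, and 37 of the 88 lay downstream of the TSS.

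The 7 Olfr genes with a shared promoter region lay in 6 clusters and were not strong sites. Olfr658, a class I receptor gene on chromosome 7, had signals of 64 and 20 in replicates 1 and 2, and Olfr1499 on chromosome 19 had 55 and 20. Olfr557, also of the class I cluster, had 37 and 17, Olfr822 on chromosome 10 had 22 and 17, and the pseudogene Olfr1372-ps1 on chromosome 11 had 26 and 11. Olfr958 on chromosome 9 had 86 and 13 at its upstream TSS, and a second shared region with 44 and 6 lay by another of its TSSs. At Olfr452 on chromosome 6 the shared region, with 26 and 19, had its midpoint 500 bp downstream of the TSS in an exon, and no replicate 2 peak had its own midpoint within that distance. Among the Olfr promoters open in replicate 1 alone the highest signals were 66 at Olfr1121, 64 at Olfr317 and 63 at Olfr1286, and no peak of replicate 2 lay within 500 bp of their TSSs. Both libraries had a promoter peak at 9 Olfr genes, and 3 of these had no shared region there: Olfr156 (58 and 5), Olfr449 (19 and 9) and Olfr1309 (19 and 4).

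The Olfr genes fell into 66 clusters when bodies up to 500 kb apart were joined, and 24 clusters with 10 or more genes held 1277 of the 1399 genes. Shared regions were found in 41 clusters, 15 clusters had peaks but no shared region, and 10 clusters, with 16 genes in all, had no peak in either library. In the 24 larger clusters the density ran from 2.54 to 82.6 peaks per Mb in replicate 1 with a median of 19.996, and from 0 to 42.8 in replicate 2 with a median of 13.6. Spearman's rho between the 2 libraries' peak counts over these 24 clusters was 0.806, as a description, since the counts share the clusters' lengths.

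The cluster with the most shared regions ran from Olfr160 to Olfr986 (chr9:37708964-40190134), where 123 genes had 55 and 41 peaks in replicates 1 and 2 and 19 shared regions. The class I cluster, Olfr543 to Olfr692 (chr7:102476579-105369355), had 156 genes, 44 and 35 peaks and 13 shared regions, with 30 other coding genes in its span. Olfr1417 to Olfr1505 (chr19:11826803-13921866) had 91 genes, 30 and 21 peaks and 13 shared regions. Olfr90 to Olfr136 (chr17:37083871-38336643) had 58 genes, 21 and 14 peaks and 10 shared regions, and Olfr722 to Olfr750 (chr14:49894258-51074435) had 29 genes, 17 and 14 peaks and 10 shared regions. The clusters differed widely for their size. The largest, Olfr987 to Olfr1274-ps (chr2:85330779-90403897), had 287 genes but only 26 and 16 peaks and 4 shared regions, or 0.912 per Mb, while Olfr1370 to Olfr1359 on chromosome 13, with 13 genes and 15 other coding genes in its span, had 24.98 shared regions per Mb.

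Clusters of 10 or more genes without any shared region numbered 3. Olfr1275 to Olfr1319-ps1 (chr2:111230360-112167997) held 46 genes and had 15 replicate 1 peaks with a median signal of 19 and 20 replicate 2 peaks with a median of 5, none of which overlapped. Olfr24 to Olfr18 (chr9:18751507-20336094) held 49 genes with 4 peaks in each library. Olfr310 to Olfr292 (chr7:86268487-86697507) held 18 genes with 7 peaks in replicate 1 and 0 in replicate 2.

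**Figure D3:**
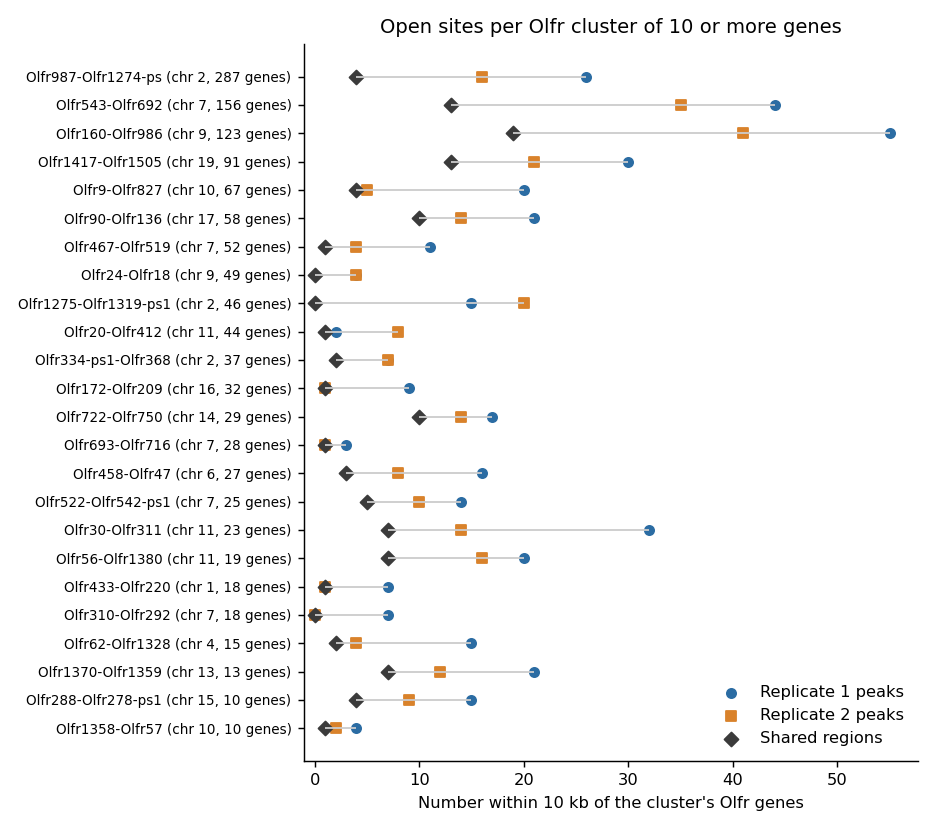
Number of replicate 1 peaks, replicate 2 peaks and shared regions (x axis) within 10 kb of the Olfr genes of each of the 24 clusters with 10 or more genes, ordered by gene number (y axis). Symbols overlap where numbers are equal. The 287-gene cluster on chromosome 2 holds 4 shared regions and the 123-gene cluster on chromosome 9 holds 19.

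All 10 of the tRNA genes near Olfr genes were overlapped, in whole or in part, by a shared open region. tRNA genes are short, are transcribed by RNA polymerase III from promoter elements inside the gene, and are not part of the GENCODE TSSs used here, so these regions count as distal. The RefSeq annotation placed 10 of 386 autosomal tRNA genes within 10 kb of an Olfr gene, and each of the 10 overlapped a shared region, against 203 of the other 376 (54.0%, Wilson 95% interval 48.9% to 59.0%). The 10 regions were 7.58% of the 132 distal shared regions near Olfr genes (4.17% to 13.4%), against 178 of 51357 distal shared regions over the autosomes (0.347%). Within 5 kb of a tRNA gene lay 20 of the 132 regions, these 10 included. The tRNA genes were looked up after the printed sequences had been seen.

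The tRNA genes lay in 3 places. On chromosome 19 beside Olfr1421-ps1, 4 of them stood within a stretch of 6 shared regions spanning 3030 bp (chr19:12010456-12013485): n-TLtaa4 with signals of 117 and 49 in replicates 1 and 2, the arginine gene n-TRtct1 with 102 and 42, and the valine genes n-TVtac1 and n-TVtac2 with 92 and 52 and with 104 and 48. On chromosome 14 beside Olfr750, a stretch of 8 shared regions spanning 4090 bp (chr14:51062336-51066425) held the leucine gene n-TLaag8 (81 and 49) and n-TPagg4 (111 and 49). It also held the threonine gene n-TTtgt3 (85 and 44), where the region covered only the start of this minus-strand gene. Farther off in the same cluster lay n-TLtag2 (60 and 22). On chromosome 13, in the histone gene cluster beside Olfr1359, n-TGgcc7 (56 and 41) and n-TMcat7 (85 and 35) lay within a stretch of 6 shared regions. The values are those of the shared region. Each library had a peak over 9 of the 10 genes, since no replicate 1 peak overlapped n-TPagg4 itself and no replicate 2 peak overlapped n-TTtgt3 itself. Both libraries were high at these sites, with medians of 85 over 11 replicate 1 peaks and 42 over 13 replicate 2 peaks, against 32 and 10.5 over the other distal peaks near Olfr genes. All autosomal distal peaks over tRNA genes had medians of 77 and 40.

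Distal sites near Olfr genes were weak as a whole but not uniformly so. Their median signal was 33 in replicate 1 (n = 418) and 11 in replicate 2 (n = 293), against 42 and 16 over all distal peaks. As a percentile rank among the autosomal distal peaks of the same list, the median was 29.6 in replicate 1 and 26.9 in replicate 2. The weakest decile held 31.6% of them in replicate 1 (27.3% to 36.2%) and 28.3% in replicate 2 (23.5% to 33.7%). The strongest decile held 8.61% (6.29% to 11.7%) and 13.0% (9.60% to 17.3%), and both intervals include the share of all distal peaks in that decile, which ties in the signal leave at 9.97% and 10.2%. Those within 10 kb of another coding TSS had medians of 45 in replicate 1 and 26 in replicate 2, and those farther away 32 and 10. Over all autosomal peaks, distal or not, the medians were 52 and 21 within 10 kb of a coding TSS outside the family. Farther away they were 41 and 15.

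**Figure D4:**
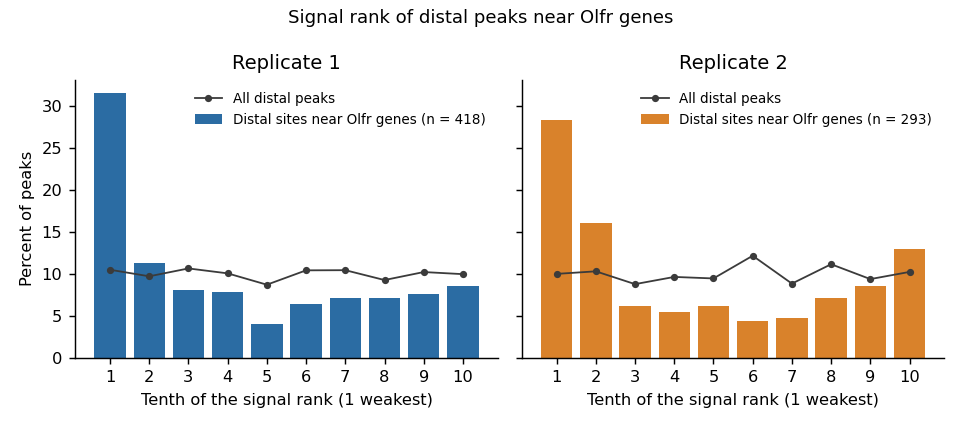
Percent of distal peaks near Olfr genes (bars) and of all autosomal distal peaks (points) in each decile of the signal rank of the list (x axis), for replicate 1 (left, n = 418) and replicate 2 (right, n = 293). The weakest decile holds 31.6% and 28.3% of the bars. The strongest decile holds 8.61% and 13.0%.

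Overlap between the libraries was not uniformly low. Among all members, 167 of 535 in replicate 1 (31.2%, 27.4% to 35.3%) met a peak of the other library, against 33.5% of all autosomal peaks. In replicate 2 it was 170 of 339 (50.1%, 44.9% to 55.4%) against 64.7%. For distal members the shares were 33.01% (28.7% to 37.7%) against 28% in replicate 1 and 48.5% (42.8% to 54.2%) against 60.3% in replicate 2. The replicate 1 share lay above that of all distal peaks and the replicate 2 share below it. Among the stronger 50% of each list, 61.0% of the 172 members left in replicate 1 (53.6% to 68.0%) were matched in the other list, against 44.6% of all autosomal peaks that strong. For the 118 left in replicate 2 the share was 91.5% (85.1% to 95.3%) against 84%. Members of the upper part of each list were thus matched more often than peaks in general, by intervals that cover counting error only. The comparison was not matched for signal. Distal members of the shortened lists had median percentiles of 52.96 in replicate 1 and 68.2 in replicate 2 within them.

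Shared and unshared sites differed in signal, as they did over the autosomes. The distal members that overlapped the other library had median signals of 62 in replicate 1 and 24 in replicate 2, and those that did not had 27 and 6. Over all distal peaks the corresponding values were 67 and 21 for overlapping peaks and 37 and 10 for the others. Within the 161 shared regions the strongest signals of the 2 libraries ranked alike, with Spearman's rho of 0.845 as a description, against 0.770 over all 73037 shared regions.

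**Figure D5:**
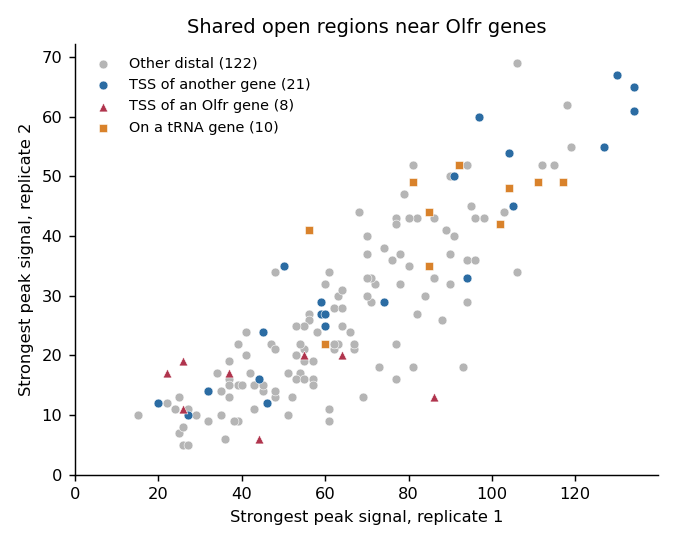
Strongest peak signal of replicate 1 (x axis) and of replicate 2 (y axis) in each of the 161 shared regions near Olfr genes. The 10 regions over tRNA genes lie at 56 to 117 in replicate 1 and the 8 regions at Olfr TSSs at 22 to 86, beside 21 at TSSs of other genes and 122 other distal regions.

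The distal shared region with the highest lower rank of the 2 libraries lay 3157 bp from Olfr1344 in an intron of Gm20715, with signals of 118 and 62 in replicates 1 and 2 and percentiles of 99.4 in both. The next lay 2810 bp from Olfr750 within the tRNA stretch of chromosome 14 (119 and 55), and the third 3298 bp from Olfr1359 and 6012 bp from the TSS of the histone gene Hist1h2bl (106 and 69). The region 4512 bp from Olfr288 had signals of 115 and 52 and lay 14343 bp from the TSS of Ccdc184. A region 2817 bp upstream of Olfr94, 9919 bp from Ubd, had 112 and 52. After n-TLtaa4, n-TPagg4 and n-TVtac2, the list closed with a region 8634 bp from Olfr1513 (chr14:52338776-52338945, 94 and 52), 10099 bp from the TSS of the zinc finger gene Sall2, and a region 507 bp from the TSS of AW551984 near Olfr148 (95 and 45). Every region of this list of 10 ranked above 95% of the distal peaks in both libraries.

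Distal members without an overlap numbered 280 in replicate 1 and 151 in replicate 2, of 135135 and 35964 such peaks over the autosomes. In replicate 1 the highest was a peak of signal 120 at chr15:98181236-98181385, beside the shared region near Olfr288, followed by one of 74 that lay 981 bp upstream of Pdgfra, the receptor gene that marks oligodendrocyte precursors, near the pseudogene Olfr1401-ps1. Others had signals of 73 near Olfr922, 73 in an exon of Olfr750 and 69 near Olfr323. The peak in Olfr750 lay within 500 bp of the end of the tRNA stretch of chromosome 14. In replicate 2 the highest were 26 near Olfr718-ps1, 24 near Olfr275, 22 near Olfr958, 19 near Olfr875 and 17 near Olfr962-ps1. Each of these 5 replicate 2 peaks lay within 500 bp of a shared region, so they flanked sites open in both libraries. Within their own lists the 5 of replicate 1 stood at percentiles of 82.4 to 99.5 and the 5 of replicate 2 at 54.6 to 78.2.

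The sequence of the distal shared regions was searched on both strands of the central 150 bp. The Lhx-type homeodomain site TAATTA was found in 9 of 132 (6.82%, 3.63% to 12.5%), against 4.02% of all 51357 distal shared regions, and the Ebf site CCCNNGGG in 2 (1.52%, 0.416% to 5.36%) against 4.85%. No region held both, which allows up to 2.83% by the upper bound of the interval, against 0.162% of all. The CTCF core motif was found in 17 (12.9%, 8.20% to 19.7%) against 9.71%, and the AP-1 site TGANTCA in 13 (9.85%, 5.85% to 16.1%) against 4.66%. The E-box CAGNTG was found in 54 (40.9%) against 42.4%, the NFI site TTGGCA in 15 (11.4%) against 14.0% and the SOX site ACAAAG in 19 (14.4%) against 13.5%. The SP site GGGCGG was found in 8 (6.06%) against 6.91%, the ETS site CCGGAAG in 2 (1.52%) against 1.18% and the CRE site TGACGTCA in 0 against 0.349%. The E-box can fall within the CTCF core, and other overlaps between motifs were not removed.

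The replicate 1 peaks at Olfr TSSs differed in sequence from promoter peaks in general. Their 150 bp held 1.36 CG dinucleotides on average and had a GC content of 46.5%, against 9.58 and 60.7% over all replicate 1 peaks within 500 bp of a TSS. The SP site was in 0 of 88 (up to 4.18%) against 34.3%, and the ETS site in 1 against 6.65%. The E-box was in 50 (56.8%, 46.4% to 66.7%) against 31.2%, the NFI site in 20 (22.7%, 15.2% to 32.5%) against 8.84%, TAATTA in 6 (6.82%, 3.16% to 14.1%) against 1.52%, and CCCNNGGG in 10 (11.4%, 6.29% to 19.7%) against 9.82%. The 2 latter sites occurred together in 2 of 88 (2.27%, 0.625% to 7.91%) against 0.0962%. Some of these shares were closer to those of all replicate 1 distal peaks, which held the E-box in 46.0%, the NFI site in 18.7%, TAATTA in 6.51% and the SP site in 4.61%. The 23 replicate 2 peaks at Olfr TSSs held the E-box in 6 (26.1%) and TAATTA in 0 (up to 14.3%). These shares describe the letters only.

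Repeats and repeated copies make part of these clusters harder to map. In the Olfr neighbourhoods 44.6% of the bases were soft-masked as repeats against 33.5% of the autosomes, and 77.9% of the sampled stretches of 36 bases occurred once in the genome against 86.1%. Within 500 bp of Olfr TSSs 88.9% occurred once. The central 36 bases of the members occurred once in 95.9% of replicate 1 peaks and 94.7% of replicate 2 peaks, against 98.9% and 98.4% of all peaks. The part of this in the low density was not tested. Replicate 2 distal members that were not shared had 25.05% of bases soft-masked against 15.4% over all such distal peaks of the library.

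Most genes that regulate receptor choice in the nose had a shared promoter region, and fewer genes of odorant signalling did. Over all autosomal protein-coding genes outside the family the share was 65.4%. A shared promoter region lay at 14 of 15 regulators, including Lhx2 (signals 94 and 44 in replicates 1 and 2), Ldb1 (129 and 53), Ebf1 (135 and 48) and the histone demethylase gene Kdm1a (121 and 65), and Emx2 had a replicate 1 peak only (59). Of 14 genes of the odorant signal pathway and its neurons, 5 had one, 7 had a replicate 1 promoter peak and 6 a replicate 2 promoter peak. Among them were Adcy3, the adenylyl cyclase of olfactory cilia (90 and 39), the channel gene Ano2 (60 and 24) and Ric8b, a chaperone of olfactory G proteins (141 and 77).

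The vomeronasal receptor families had fewer shared regions per Mb than the Olfr genes, but not fewer replicate 2 peaks. Vomeronasal receptors detect pheromones and also lie in clusters. Within 10 kb of 326 Vmn1r genes there were 83 and 92 peaks in replicates 1 and 2 and 17 shared regions, or 2.56 per Mb (1.49 to 4.09), and within 10 kb of 235 Vmn2r genes 115 and 157 peaks and 34 shared regions, or 3.78 per Mb (2.62 to 5.28), both intervals lying below that of the Olfr genes. Here 56.3% and 55.4% of the stretches of 36 bases occurred once, against 77.9% around Olfr genes, and their part in the difference was not tested. The beta-defensin genes, a clustered family of antimicrobial peptides without a sensory role, had 13.5 shared regions per Mb (6.72 to 24.1) around 43 genes. Replicate 1 had 12.5 peaks per Mb around Vmn1r genes and 12.8 around Vmn2r genes, against 21.8 around Olfr genes. Replicate 2 had 13.8 (11.1 to 17.0) and 17.4 (14.8 to 20.4), against 13.8 (12.4 to 15.4) around Olfr genes. It thus had more peaks than replicate 1 in both vomeronasal families although its list was the shorter. Those replicate 2 peaks were weak, with a median signal of 5 in both families, against 12 around Olfr genes and 18 over the autosomes. Of them 20.7% and 26.1% overlapped a replicate 1 peak, against 50.1% around Olfr genes and 64.7% over the autosomes.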

How the data were processed

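The deposited files gave, for each of 2 DNase-seq libraries, a list of 150 bp peaks and a list of hotspots on mm10, per the file headers and labels. Column 7 of the deposited peaks is a signal in whole numbers, and hotspots carry the authors' −log10 q-value. The score in column 5 of the deposited hotspots entered no result. Neither aligner nor peak caller is named by the sources, peaks were called per library, and read depth is unknown. No SD over 2 values is given; both are printed.

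Rows off the autosomes were set aside for the members, densities, overlaps and signal ranks. In replicates 1 and 2, 22 and 24 peaks at repeated coordinates were dropped. Gene bodies and TSSs came from GENCODE M21, tRNA genes and sequence from the RefSeq annotation and copy of GRCm38. Overlap meant at least 1 bp. Shares have Wilson and densities Poisson 95% intervals. The interval functions were tested on simulated data. Python 3.11.15, numpy 2.4.6, pandas 2.3.3 and scipy 1.17.1 were used.

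The regions named are the 10 distal shared regions with the highest lower rank, every Olfr gene with a shared promoter region, the 5 clusters with most shared regions and those of 10 or more genes with none, the 10 strongest shared coding promoters, the 5 strongest unshared distal peaks per library and the genes of the lists; Olfr promoters open in replicate 1 alone, the largest and the chromosome 13 cluster, and the tRNA genes, were chosen after their values were seen. The printed Olfr958 sequence was added for the gap between its ranks in the 2 libraries. Members and lists were chosen with earlier results of these data known.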

Additional observations from a re-analysis of the deposited data

Results flagged for a closer look

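The 8 Olfr genes on the X chromosome lie outside the autosomal comparisons and had 7 replicate 2 peaks and 3 replicate 1 peaks within 10 kb. They are listed because the members, densities, overlaps and signal ranks of the report leave out this chromosome. Cnga2, counted in the gene lists, also lies on it. Their number was not compared with the density of peaks over the X chromosome, so it says nothing of whether peaks were many or few there. The replicate 2 signals were 3 to 8 and the replicate 1 signals 19, 52 and 29, and no peak overlapped one of the other library. The replicate 2 peaks lay near Olfr1322, Olfr1326-ps1 and Olfr1327-ps1, and the replicate 1 peaks near Olfr1320 and Olfr1324.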

How the results depend on the processing

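No paired analysis was possible because the 2 libraries form a single group. Of 87 recomputed values, 56 stayed within 1.5 times the count or within the interval reported, and the density of shared regions around Olfr genes stayed between 16.9% and 44.2% of the autosomal density. A limit of 5 kb gave 97 shared regions, overlaps of 26.3% and 43.8% and a density of 16.9%. A limit of 50 kb gave 1248 and 851 peaks, 484 shared regions, overlaps of 40.6% and 60.4% and 44.2%, by construction further from the genes. The stronger 50% of each list gave 172 and 118 peaks, 102 shared regions, overlaps of 61.0% and 91.5%, 2 Olfr genes with a shared promoter region and median percentiles of 52.96 and 68.2 within the shortened lists. With both lists at the shorter length there were 192 replicate 1 peaks, overlaps of 67.7% and 39.5%, 3 such genes and a replicate 1 median percentile of 53.1. Promoter windows of 100 bp and 1000 bp gave 1 and 12 such genes. Members over 500 bp from every TSS gave 27.3%. Without replicate 1 or replicate 2, the other library alone gave 339 to 535 regions, 20 to 79 Olfr genes with an open promoter and densities of 23.4% to 27.7%. Hotspots in place of peaks, reciprocal overlap of 50%, protein-coding Olfr genes alone and other cluster gaps moved none of the values recomputed under them past those limits. Neither did leaving out tRNA genes (151 shared regions) or members whose central 36 bases are repeated, both chosen after seeing the data. Signal ranks were not recomputed for hotspots, nor the density and the promoter count for either of these exclusions. Where no construction is named, the cause was not tested. Depth is unknown, so absence of a peak in a library is not absence of openness.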
